A study of Mus musculus with 2 samples.

Results

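The 9 genes described here carry out the synthesis, storage and first breakdown step of the catecholamines. They are Th, Gch1, Ddc, Dbh, Pnmt, Slc18a1, Slc18a2, Cyb561 and Maoa, and every transcript model that the deposited tables assign to one of these gene names was used. All 9 had reads in both libraries, among 16400 annotated genes with reads. They were read as 101 of the 56081 transcript models of annotated genes in replicate 1 and as 137 of 81577 in replicate 2. The samples were adrenal glands of female mice of the hybrid strain B6CASTF1/J (C57BL/6J by CAST/EiJ), aged 25 days. Total RNA was read as cDNA molecules on a long-read sequencer, in 1 group of 2 libraries with no treatment and no second condition. The tissue labels name a different animal for each library, while the library descriptions name the same animal for both. The spread between the libraries may therefore be partly technical.

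Catecholamine synthesis starts with the hydroxylation of tyrosine to DOPA by tyrosine hydroxylase, which needs tetrahydrobiopterin. DOPA is then decarboxylated to dopamine in the cytosol, and dopamine is carried into chromaffin granules, where it becomes noradrenaline. Chromaffin cells of the adrenal medulla also methylate noradrenaline to adrenaline, and what leaks back into the cytosol is deaminated by monoamine oxidase. The gland used here was not dissected into cortex and medulla as far as the labels say. In such bulk tissue, fewer cells of a type and less RNA per cell cannot be told apart.

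Replicate 1 held 397176 reads on annotated mouse genes and replicate 2 held 712032. A level in CPM is a gene's reads scaled to counts per 1000000 of these, and 0 reads allow up to 3, which is 7.55 CPM in replicate 1 and 4.21 CPM in replicate 2. Intervals in parentheses are 95% intervals for counting error only, since PCR copies of 1 molecule were not told apart. The catecholamine genes took 1450 reads in replicate 1, 0.365% of the total (0.347 to 0.384, Wilson). They took 2358 reads in replicate 2, 0.331% (0.318 to 0.345). The mean share was 0.348% ± 0.024 (SD, n = 2).

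Th, which encodes tyrosine hydroxylase, was the most read of the 9 genes and lies on mm10 chromosome 7 from 142892752 to 142931128 (ENSMUSG00000000214.11, minus strand). It had 842 reads in replicate 1, or 2120 CPM (1979 to 2268, exact Poisson). In replicate 2 it had 1206 reads, or 1694 CPM (1599 to 1792), and the mean was 1907 ± 301 CPM (SD, n = 2). Th stood at rank 28 of all annotated genes in replicate 1 and at rank 36 in replicate 2. It made up 58.1% of the reads of the 9 genes in replicate 1 and 51.1% in replicate 2.

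The promoter of Th is shown because it holds a whole cyclic AMP response element, the letters TGACGTCA, printed in capitals. The sequence is from the RefSeq promoter table (build GRCm38.p6, the same assembly as mm10) and gives the 120 bases before the RefSeq start of Th, chr7:142899996-142900115, minus strand.
Th promoter: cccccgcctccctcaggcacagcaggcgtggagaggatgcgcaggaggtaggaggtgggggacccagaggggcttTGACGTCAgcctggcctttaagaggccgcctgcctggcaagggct
The element begins 45 bases before this RefSeq start, which is position 142899995. The annotated transcript Th-201 starts further upstream, at 142900014, so the last bases printed lie in its first exon. The element is upstream of both starts. The table had windows of 250 bases before to 50 bases after the start for 6 of the 9 genes, 7 windows in all. 2 of the 7 held these letters, those of Th and Slc18a2, against 588 of all 32851 windows in the table (1.79%). The letters read the same on both strands, so 1 search covered both. All sequences printed here are reference sequence, as are the windows searched. The alleles of the hybrid mice were not examined. Pnmt, Slc18a1 and Cyb561 were not in the table.

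Gch1, GTP cyclohydrolase, makes the first intermediate of tetrahydrobiopterin (chromosome 14, 47153895 to 47189413, ENSMUSG00000037580.10, minus strand). It had 107 reads in replicate 1, or 269 CPM (221 to 326), and 150 reads in replicate 2, or 211 CPM (178 to 247). The mean was 240 ± 41.5 CPM. Nearly all of its spliced reads followed a single structure, the 6-exon Gch1-201, with 98 reads in replicate 1 and 133 in replicate 2.

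Ddc, the DOPA decarboxylase, was the least read of the 9 genes in undivided CPM (chromosome 11, 11814101 to 11898144, ENSMUSG00000020182.16, minus strand). It had 3 reads in replicate 1, or 7.55 CPM (1.56 to 22.1), and 8 reads in replicate 2, or 11.2 CPM (4.85 to 22.1). Both values are of the order of the smallest level these depths could show, and the ranks were 9012 and 8334. Th had 281 times the reads of Ddc in replicate 1 (95.7 to 1364) and 151 times in replicate 2 (76.3 to 349.98). Per kilobase of the mean length of their models the Th level was 202 times the Ddc level in replicate 1 and 90.9 times in replicate 2.

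The Ddc gene has a downstream first exon, which ends at position 11890408, and upstream first exons that reach position 11898144. The annotated first intron of Ddc-202, the 15-exon transcript with the downstream first exon, was held by 1 read in replicate 1 and by 3 in replicate 2. They lay on Ddc-202 (1 read in each library), on Ddc-208 (1 read in replicate 2) and on a model with an unannotated splice site (1 read in replicate 2). No read of either library had an upstream first exon, and the 4 reads that reached a first exon are too few to bound its use. The 120 bases before the RefSeq start of each are shown to tell the start that was read from the one that was not. None of their letters is in capitals, because neither window holds the element searched for in Th.
Ddc downstream promoter, chr11:11890409-11890528, minus strand: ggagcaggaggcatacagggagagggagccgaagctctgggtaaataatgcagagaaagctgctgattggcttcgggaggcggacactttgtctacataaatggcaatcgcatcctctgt
Ddc upstream promoter, chr11:11898145-11898264, minus strand: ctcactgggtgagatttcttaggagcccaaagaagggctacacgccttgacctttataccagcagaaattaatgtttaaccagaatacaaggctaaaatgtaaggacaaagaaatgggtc

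Dbh, the granule enzyme that makes noradrenaline from dopamine, had 103 reads in replicate 1, or 259 CPM (212 to 315). In replicate 2 it had 166 reads, or 233 CPM (199 to 271), and the mean was 246 ± 18.5 CPM (chromosome 2, 27165233 to 27183200, ENSMUSG00000000889.8, plus strand). Pnmt, which methylates noradrenaline to adrenaline, had 202 reads in replicate 1, or 509 CPM (441 to 584). It had 412 reads in replicate 2, or 579 CPM (524 to 637), with a mean of 544 ± 49.5 CPM (chromosome 11, 98386450 to 98388181, ENSMUSG00000038216.7, plus strand). In both libraries Pnmt was the higher of the pair. The ratio of Pnmt to Dbh reads was 1.96 in replicate 1 (1.54 to 2.51) and 2.48 in replicate 2 (2.07 to 2.99). Per kilobase the Pnmt level was 3.95 and 4.47 times the Dbh level.

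The vesicular monoamine transporters load dopamine and the other amines into granules, Slc18a1 encoding VMAT1 and Slc18a2 encoding VMAT2. Slc18a1 had 11 reads in replicate 1, or 27.7 CPM (13.8 to 49.6), and 25 reads in replicate 2, or 35.1 CPM (22.7 to 51.8), a mean of 31.4 ± 5.24 CPM (chromosome 8, 69037711 to 69089235, ENSMUSG00000036330.12, minus strand). Slc18a2 had 5 reads in replicate 1, or 12.6 CPM (4.09 to 29.4), and 22 reads in replicate 2, or 30.9 CPM (19.4 to 46.8), a mean of 21.7 ± 12.9 CPM (chromosome 19, 59260896 to 59296012, ENSMUSG00000025094.8, plus strand). The reads did not separate the transporters. The ratio of Slc18a1 to Slc18a2 reads was 2.20 in replicate 1 (0.705 to 8.08) and 1.14 in replicate 2 (0.615 to 2.11), and both intervals include 1.

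In Slc18a2 the cyclic AMP response element, again in capitals, spans the RefSeq start of the gene, its first base 4 bases before it. The 30 bases around it are chr19:59260863-59260892, plus strand, from the same RefSeq table. The annotated transcript Slc18a2-201 starts at 59260896, downstream of all these bases.
Slc18a2 start: agcgctgtccgTGACGTCAgagccggactg
Of the pair whose windows held the element, Th had the highest level of the 9 genes in CPM and per kilobase. Slc18a2 was among the lowest 3 on both scales. A link between the element and the level was not tested, and Pnmt, Slc18a1 and Cyb561 had no window to search.

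Cyb561 encodes cytochrome b561, the granule membrane protein that passes electrons inward to renew the ascorbate used by dopamine beta-hydroxylase. It had 171 reads in replicate 1, or 431 CPM (368 to 500.1), and 344 reads in replicate 2, or 483 CPM (433 to 537), a mean of 457 ± 37.2 CPM (chromosome 11, 105933702 to 105953336, ENSMUSG00000019590.16, minus strand). Maoa encodes monoamine oxidase A of the outer mitochondrial membrane. It had 6 reads in replicate 1, or 15.1 CPM (5.54 to 32.9), and 25 reads in replicate 2, or 35.1 CPM (22.7 to 51.8), a mean of 25.1 ± 14.1 CPM (chromosome X, 16619698 to 16687818, ENSMUSG00000025037.6, plus strand).

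**Figure D1:**
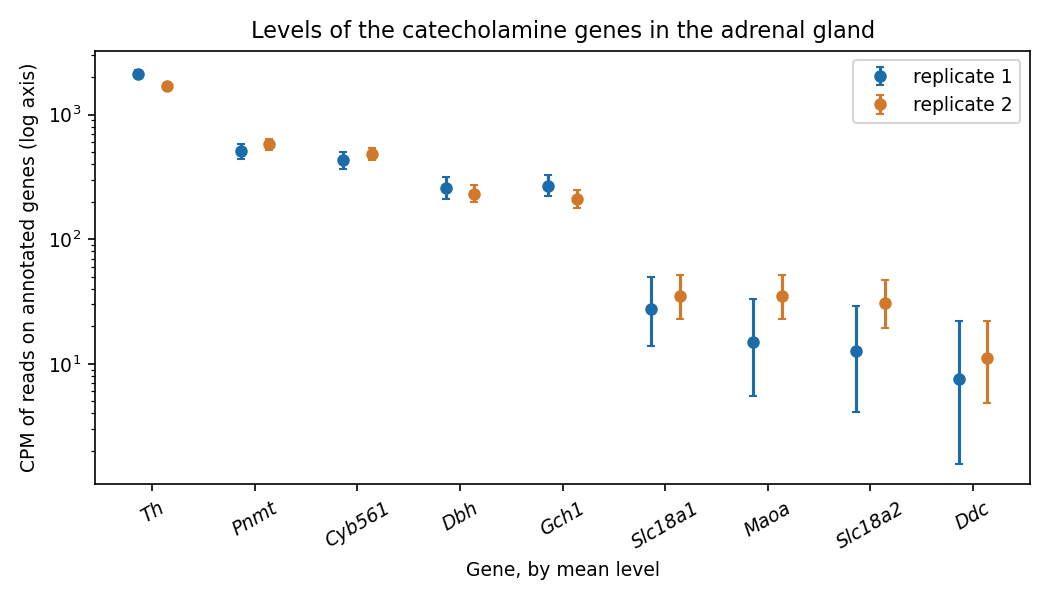
Level of each gene in CPM of reads on annotated genes, on a log axis, for replicate 1 and replicate 2 of the adrenal gland; bars are 95% exact Poisson intervals. Th, Pnmt, Cyb561, Dbh and Gch1 lie above 200 CPM in both libraries, and Slc18a1, Maoa, Slc18a2 and Ddc below 40 CPM.

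The 9 genes fell into a high and a low group. Per kilobase of model length the order of mean levels was Th (1029 ± 147 CPM per kilobase), Pnmt (463 ± 45.8), Cyb561 (182 ± 14.0), Dbh (110 ± 1.15) and Gch1 (95.1 ± 13.9). Slc18a1 (12.01 ± 2.39), Ddc (7.89 ± 3.23), Maoa (7.01 ± 4.78) and Slc18a2 (6.23 ± 3.82) followed, all as mean CPM per kilobase (SD, n = 2). Per kilobase the 2 libraries' values of Maoa overlapped those of Slc18a1, Ddc and Slc18a2, and those of Ddc overlapped those of Slc18a2, so the order of these 4 genes was not resolved. Undivided CPM, in which 1 long read stands for 1 cDNA whatever its length, gave the same first 6 places and moved Ddc from place 7 to place 9, below Maoa and Slc18a2. On that scale the libraries' values of Dbh and Gch1, of Slc18a1 and Maoa, and of Maoa and Slc18a2 overlapped. The counting intervals in CPM also overlapped in a library for Pnmt and Cyb561 and for Slc18a2 and Ddc.

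The comparison of the libraries was a two-sided exact binomial test of each gene's reads against the library totals, Benjamini-Hochberg adjusted over 9271 genes with at least 10 reads. It compares 2 libraries and not conditions. The test holds counting error only, since variation between libraries cannot be estimated with 1 library a side. Genes with many reads can therefore pass at a small fold, and the shares given next are not matched for read depth. Of all genes tested, 2.15% passed an adjusted p of 0.05, 1.35% with the higher level in replicate 1 and 0.798% with the higher level in replicate 2. Of the 9 catecholamine genes 1 passed, Th, which was 1.25-fold higher in replicate 1 (log2 ratio of replicate 2 over replicate 1 -0.32, interval -0.45 to -0.20). Its adjusted p was 1.13e-04 in this exact test. The other 8 did not pass. Gch1 had a log2 ratio of -0.36 (adjusted p = 0.470) and Dbh -0.16 (adjusted p = 0.867), while Pnmt had 0.18 (adjusted p = 0.629) and Cyb561 0.16 (adjusted p = 0.740), all by the same exact test. The largest ratios belonged to the thinly read Slc18a2 (log2 1.19, -0.14 to 3.05) and Maoa (log2 1.13, -0.10 to 2.79), and their intervals include 0. The median log2 ratio was 0.18 over the 9 genes and 0.03 over all genes tested.

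**Figure D2:**
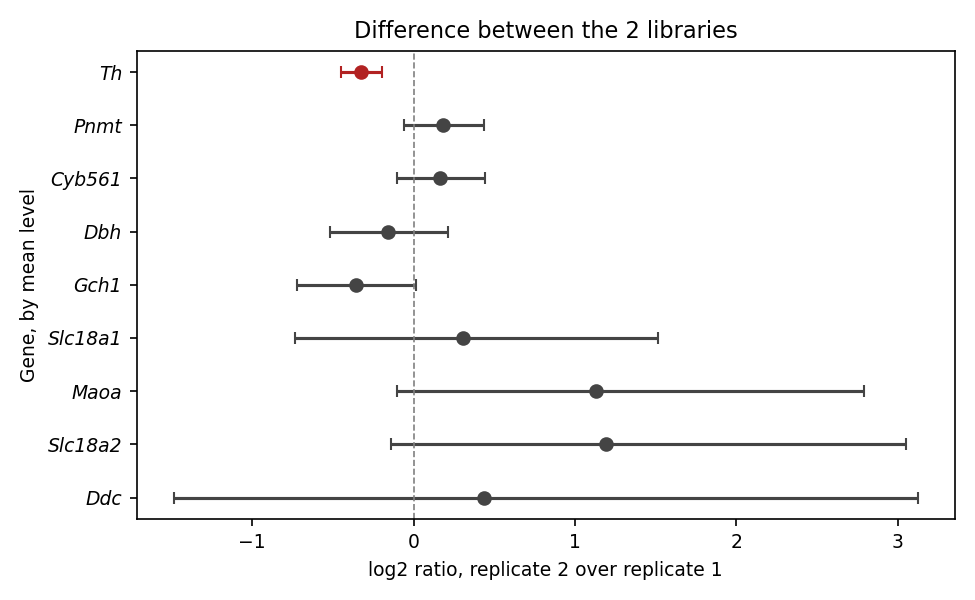
Log2 ratio of replicate 2 over replicate 1 for each gene with its 95% counting interval; the red point passed an adjusted p of 0.05 over all genes and the dashed line marks equal levels. The interval of Th alone lies wholly off 0, at -0.45 to -0.20.

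Markers of chromaffin cells and of other cells also differed between the libraries. Of the 9 chromaffin cell markers, which include Th, Dbh and Pnmt, 1 passed with the higher level in replicate 1 (Th) and 2 with the higher level in replicate 2. These were Chga, 1.11-fold higher (adjusted p = 0.0207, exact binomial test), and Chgb, 1.29-fold higher (adjusted p = 1.72e-11, exact binomial test), which encode the granule proteins chromogranin A and B. The summed level of the list was 12659 CPM in replicate 1 and 13894 CPM in replicate 2. Of the 6 adrenal cortex markers 3 passed with the higher level in replicate 1 and 1 with the higher level in replicate 2, and their sums were 74546 and 67341 CPM. The most read were the steroid enzymes Cyp11a1 (28038 and 24144 CPM) and Cyp21a1 (17030 and 16814 CPM). All 4 liver markers tested passed with the higher level in replicate 1, where the list of 6 had 97 reads against 1 in replicate 2; Alb had 32 and 1 reads and Apoa1 23 and 0. The 6 kidney tubule markers had 0 reads in both libraries. Their part in the difference of Th was not tested.

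Markers of other cells that make or carry monoamines were few. The 5 markers of sympathetic neurons or glia summed to 4 reads in replicate 1 and 17 in replicate 2, with S100b at 2 and 4 reads. Of the mast cell markers Tpsb2 alone had a read, 1 in replicate 1. The serotonin-synthesis genes Tph1 and Tph2 had 0 reads, which allows up to 7.55 CPM in replicate 1 and 4.21 CPM in replicate 2. Slc6a4, the serotonin transporter, had 7 reads (17.6 CPM) and 23 reads (32.3 CPM). These counts lie beside 11 and 25 reads of Slc18a1, 5 and 22 of Slc18a2, and 6 and 25 of Maoa.

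The tetrahydrobiopterin list holds 8 genes including Gch1, all of them read in both libraries and none past the threshold between them. Its sum was 723 CPM in replicate 1 and 676 CPM in replicate 2, with Gch1 itself at 269 and 211 CPM. The other cofactor list covers pyridoxal phosphate for Ddc, copper for Dbh and the methyl donor for Pnmt. All 9 of its genes were read, 7 were tested and none passed. The copper chaperone Atox1 had 473 and 559 CPM, and Mat2a, which makes S-adenosylmethionine, had 317 and 242 CPM. Of 12 reuptake and breakdown genes 10 were read, 7 were tested and none passed. Slc6a3, the dopamine transporter, had 0 reads in both libraries. The highest were the aldehyde-handling enzymes Aldh2 (1380 and 1336 CPM), Akr1a1 (781 and 874 CPM) and Aldh1a1 (219.05 and 219.09 CPM). In undivided CPM each stood above Maoa, which forms catecholamine aldehydes that they can act on. Which cells of the whole gland gave these reads was not tested.

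Long reads also show how each gene was spliced. The deposited classes are annotated transcripts, incomplete splice matches (a contiguous part of an annotated intron chain), new combinations of known splice sites (called unannotated combinations), models with an unannotated splice site, and genomic models (within the gene without its splicing). Of the reads of the 9 genes, 75.4% in replicate 1 and 73.7% in replicate 2 lay on annotated transcripts, close to the 77.1% and 77.0% of all other annotated genes. Unannotated combinations took 12.3% and 13.1% of the reads of the 9 genes, against 4.60% and 4.61% in all other genes, a description with no test. Of these 179 and 310 reads, Cyb561 held 106 and 227, and Th held 72 and 73. The unannotated Cyb561 chain was named in the choice of genes. The higher share is therefore not a result about the 9 genes as a set.

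**Figure D3:**
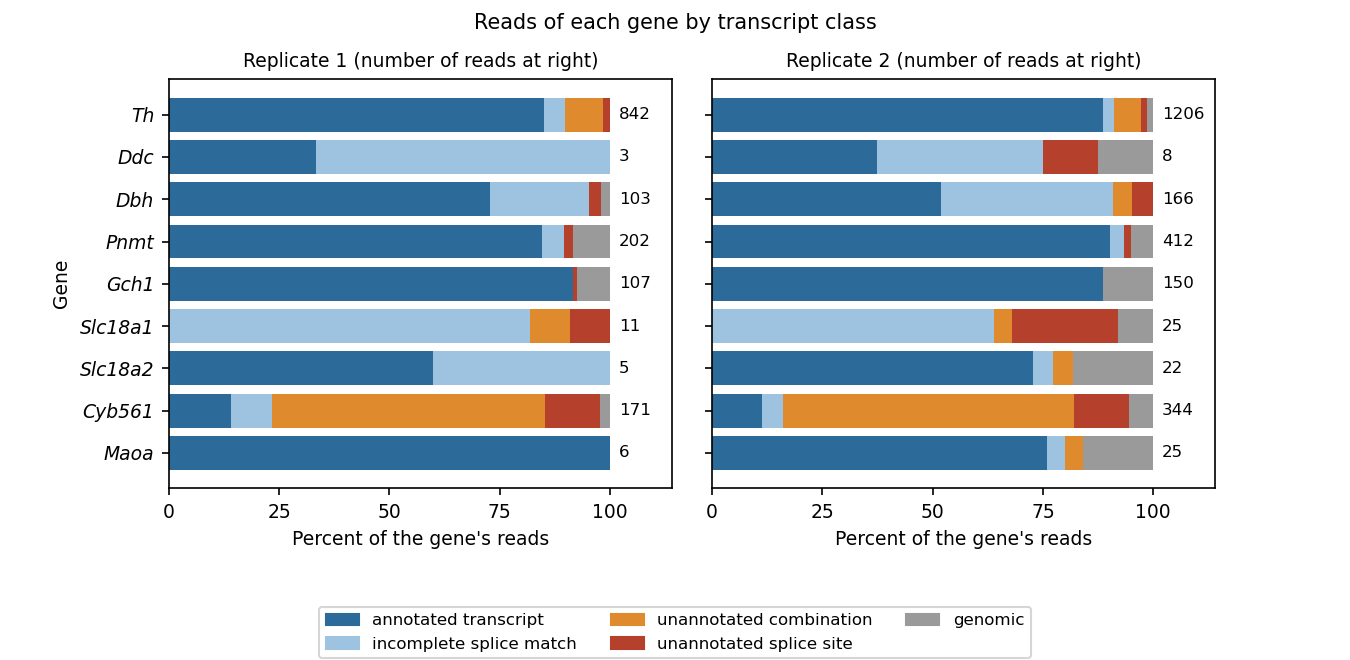
Percent of each gene's reads in each transcript class, replicate 1 at left and replicate 2 at right, with the number of reads beside each bar. Cyb561 is mostly unannotated combination (62.0% and 66.0%), and Slc18a1 has no read on an annotated transcript. The bars of Ddc, Slc18a1, Slc18a2 and Maoa rest on 25 reads or fewer.

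The share on annotated transcripts was compared in 3926 genes with Fisher's exact test (two-sided), of which 0.229% passed. Of the 9 catecholamine genes 5 had the required 20 reads in each library and 0 passed. An unadjusted p under 0.05 was found in 3 of these 5 and in 232 of all 3926 genes. The largest difference was in Dbh, at 72.8% in replicate 1 (63.5 to 80.5) and 51.8% in replicate 2 (44.3 to 59.3; adjusted p = 0.180, Fisher's exact test). The use of annotated transcripts was compared in 3057 genes, of which 0.0981% passed. It was tested in 5 of the 9, of which 0 passed, and 0 had an unadjusted p under 0.05, against 61 of all 3057 genes. In 4 of those 5 a single annotated transcript was read, so no difference could appear.

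Most Cyb561 reads lay outside the annotated transcripts. Of its reads 95 of 171 in replicate 1 (55.6%, 48.1 to 62.8) and 188 of 344 in replicate 2 (54.7%, 49.4 to 59.8) lay on 1 intron chain of 6 exons that is not an annotated transcript, 55.1% ± 0.64 (SD, n = 2). No difference between the libraries was detected (p = 0.851, Fisher's exact test, two-sided, 1 comparison). Cyb561-201, the annotated transcript with the most reads, also has 6 exons and held 22 reads (12.9%) and 35 reads (10.2%). The unannotated chain thus had 4.32 and 5.37 times its reads. Of 1677 genes with at least 50 reads in each library, 33 (1.97%) likewise had a spliced chain of these unannotated classes as their most read model in both. These include Cyb561, whose chain was named in the choice of genes, so the share is a description and tests nothing.

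The chain differs from Cyb561-201 in its first exon. Its own runs from 105940100 to 105940164, 65 bases, where that of Cyb561-201 runs from 105944111 to 105944412, 302 bases. The other 5 exons are the same, and the second exon of both holds the start codon. The annotated coding sequence is therefore complete in the chain, and 84.2% of Cyb561 reads in replicate 1 and 84.6% in replicate 2 lay on models that hold it whole, although 14.0% and 11.3% lay on annotated transcripts. No intron of the chain is new by itself. The first one is annotated in Cyb561-204 and Cyb561-207, where the 65-base exon or a longer form of it is internal and follows an exon at 105944111. Those transcripts had 0 reads as annotated. The 5′ end of the chain, 105940164, is also the upstream edge of the internal exon in Cyb561-207. Model ends are given and not those of single reads. Whether reads of the chain began there or were cut short of an upstream exon was not tested. The 30 bases across this junction are shown for both forms, read from the GENCODE M21 transcripts Cyb561-207 and Cyb561-201, with the last 13 bases of the upstream exon and the start codon in capitals.
Cyb561 unannotated chain: AGAACCCAAGAGGctggggtctcagaATGg
Cyb561-201: GCGGCGGGACAAGctggggtctcagaATGg
The bases from the junction onward are the same in both, and only the upstream exon differs.

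Reads that cross into the exon of the start codon came from several upstream exons. The edge at 105940100, which lies 2273 bases upstream of the start codon in the genome, was used by 106 reads in replicate 1 (62.0% of the gene's reads) and 231 in replicate 2 (67.2%). In 90.6% and 86.6% of these the exon was the first of the model. In the remaining 10 and 31 reads it was spliced on to an exon further upstream, 8 and 28 of them as a chain of 7 exons from 105944139. The edge at 105944111, that of Cyb561-201, was used by 23 reads (13.5%) and 37 reads (10.8%). Unannotated edges at 105938538 and 105939930 were used by 11 and 13 reads and by 8 and 21 reads. All these edges had reads in both libraries. An exon later in the chain also had a longer form: with 44 more bases, not a whole number of codons, it made up 3.11% of the reads spliced there in replicate 1 (5 reads, 1.33 to 7.06) and 3.75% in replicate 2 (12 reads, 2.16 to 6.44). The opposite-strand gene Gm9910 overlaps the upstream first exon and had 2 and 5 reads of its own.

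**Figure D4:**
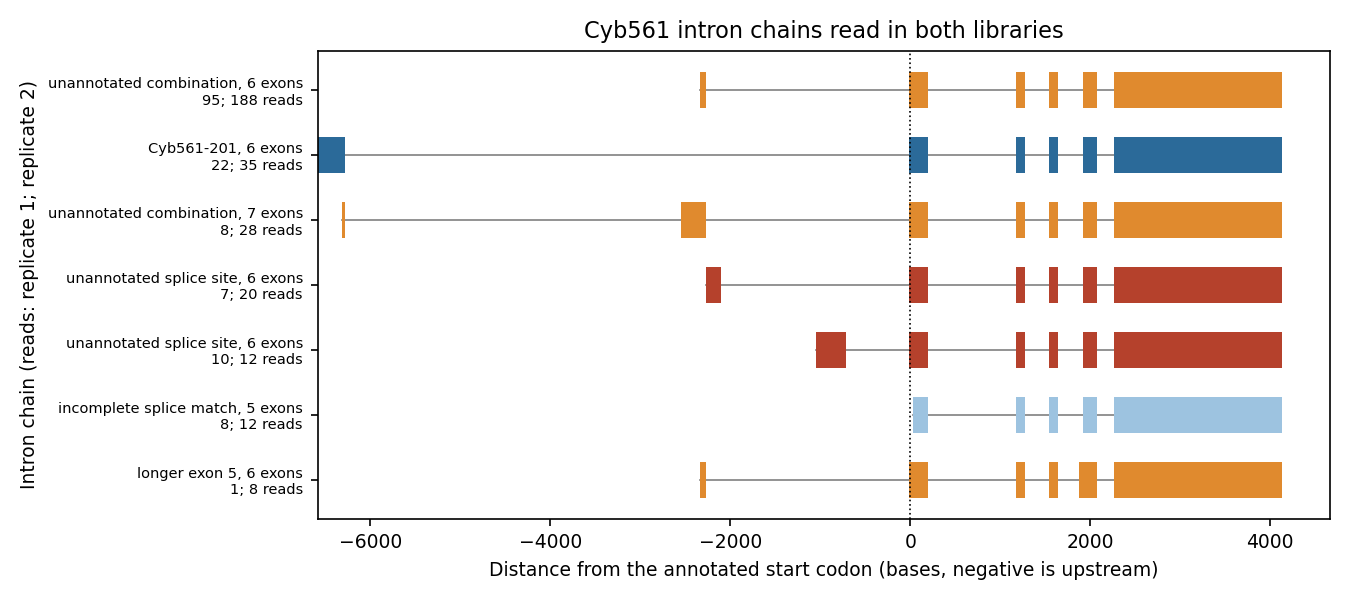
Intron chains of Cyb561 with reads in both libraries and at least 5 reads in all, drawn 5′ to 3′ as distance in bases from the start codon of Cyb561-201; boxes are exons (blue annotated, orange unannotated combination, red unannotated splice site, light blue incomplete match) and reads are given for replicate 1 and then replicate 2. All chains share the last exons and differ upstream of the start codon, except the 5-exon model, which begins within its exon, and the chain with the longer exon 5.

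Slc18a1 had 0 reads on annotated transcripts in both libraries, a pattern shared by 92 of 6030 genes with at least 10 reads in each (1.53%). Its main model, with 8 of 11 reads in replicate 1 and 16 of 25 in replicate 2, holds 16 of the 17 exons of Slc18a1-201 and begins within exon 2. Exon 1, from 69088981 to 69089222, was joined to exon 2 by 0 reads, while the join of exon 2 to exon 3 was held by 10 reads in replicate 1 and 23 in replicate 2. The start codon lies in exon 3, so this model holds the whole annotated coding sequence (72.7% and 64.0% of reads). The 30 bases across each join are from Slc18a1-201, with the upstream exon in capitals.
Slc18a1 exon 1 to exon 2, held by no read: CCGCTGGCTGAACAGagaacagagtttccg
Slc18a1 exon 2 to exon 3, held by 10 and 23 reads: AAGACGAGCTGTAAGtgagcttcactagac
Exon 1 lies within the span of Atp6v1b2 on the opposite strand, a subunit of the vacuolar proton pump, whose annotated transcript had 74 and 122 reads. How strand was used in counting is not given in the sources used here, so reads within exon 1 may not be wholly separate. The spliced Slc18a1 models lay at or below 69077228 and the Atp6v1b2 models at or above 69088646, so these did not overlap. The main Slc18a1 model begins at 69077228, which is the annotated start of another, shorter transcript of the gene. The files give model ends and not those of single reads.

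Th was read mainly as Th-201, a 13-exon transcript, with 716 reads in replicate 1 and 1070 in replicate 2, and no other annotated transcript of the gene was read. Neither library had a read on the annotated upstream exon at 142930594. Of the reads on other spliced models of Th, most kept 1 or more introns (88 of 117 in replicate 1 and 78 of 119 in replicate 2). Among reads on spliced Th models, 88 of 833 in replicate 1 (10.6%, 8.65 to 12.8) and 78 of 1189 in replicate 2 (6.56%, 5.29 to 8.11) held at least 1 retained intron. The introns were not kept evenly. Intron 5, of 331 bases, was retained in 7.24% of the reads across it in replicate 1 (5.65 to 9.23) and in 4.95% in replicate 2 (3.85 to 6.35). Intron 6, of 360 bases, was retained in 6.95% (5.40 to 8.90) and 2.99% (2.16 to 4.13). Intron 8, of 158 bases, was retained in 7.52% (5.91 to 9.52) and 2.97% (2.14 to 4.10). Intron 7, of 70 bases and between them, was retained in 0.727% and 0.680%. Intron 2 was retained in 1.85% and 1.55%, and each of the introns not named here in under 1% in both libraries.

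Most of these reads kept more than 1 intron: of the 88 and 78, 65 and 54 held 2 or more. The chain that kept introns 5 and 6 had 12 and 15 reads, the chain that kept introns 5, 6 and 8 had 20 and 5, and the chain that kept intron 8 alone had 11 and 5. For introns 6 and 8 the counting intervals of the libraries did not overlap, replicate 1 being higher. These 2 were noted after the values of all 12 introns were seen, and some reads kept both. The difference by intron was not tested. The share of Th reads on annotated transcripts, 85.0% and 88.7%, did not pass between the libraries (adjusted p = 0.633, Fisher's exact test). Retention of these introns and the level of Th were both higher in replicate 1, and a link was not tested. Of 74 spliced Th chains outside the annotation, 21 were read in both libraries.

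**Figure D5:**
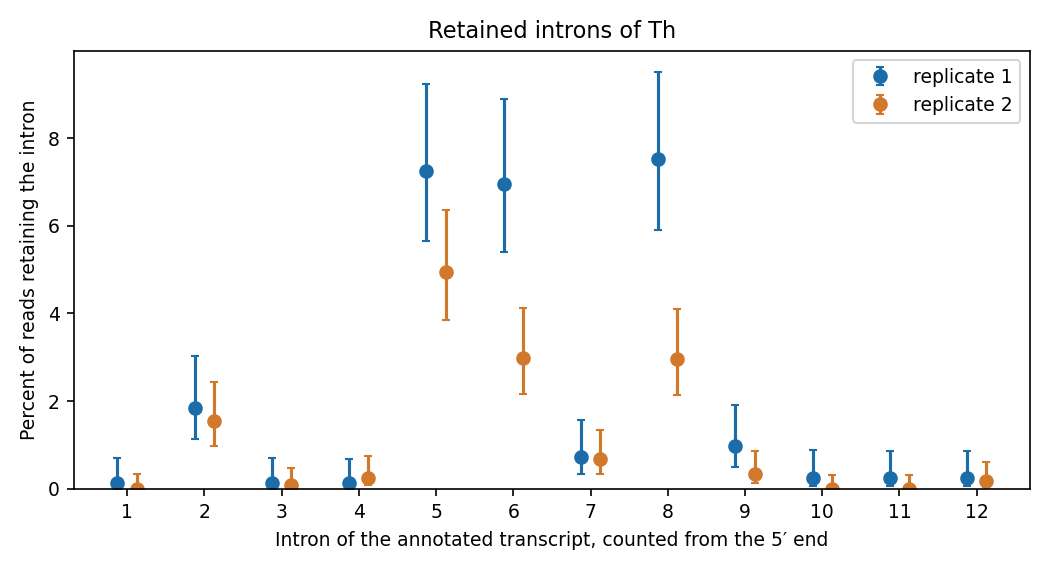
Percent of the reads across each intron of Th-201 that retain it, introns counted from the 5′ end, in replicate 1 and replicate 2 with 95% Wilson intervals. Introns 5, 6 and 8 stand at 2.97% to 7.52%, intron 2 below 2% and the others below 1%.

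Among the 5 genes with at least 20 reads in each library, Dbh had the largest share of incomplete splice matches in both. Dbh-201, with 12 exons, held 75 reads in replicate 1 and 86 in replicate 2, and incomplete splice matches held 22.3% and 39.2% of the gene's reads. Of 9 Dbh chains outside the annotation shared by both libraries, the 5 with the largest smaller count began at successively later exons. They had 3 and 2 reads from exon 2, 8 and 14 from exon 3, 4 and 10 from exon 4, 2 and 7 from exon 7, and 3 and 10 from exon 10. Shared incomplete chains with fewer reads began between these, at 27172704 (1 and 5 reads) and at 27178188 (1 and 3 reads). The model from exon 10 was drawn in replicate 1 to position 27186903, beyond the annotated end of the gene. The first intron was held by 75.7% and 59.0% of Dbh reads and the last by 98.1% and 92.2%, so fewer reads held the 5′ junction than the 3′ one. Over all annotated genes the share of incomplete splice matches was 9.10% in replicate 1 and 9.28% in replicate 2. Intron retention in Dbh was at most 1.92% at any intron in either library.

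Pnmt-201, of 3 exons, held 171 and 372 reads. Its introns are short, of 470 and 108 bases. The chain that kept the second had 5 and 10 reads and the chain that kept the first had 5 and 3. Unspliced 1-exon models took 8.42% of Pnmt reads in replicate 1 and 5.10% in replicate 2. Gch1, whose introns run from 1369 to 19630 bases, had no spliced read that retained one, and 1-exon models took 7.48% and 11.3% of its reads. Slc18a2-201 had 3 and 16 reads, Maoa-201 had 6 and 19, and no other annotated transcript of these genes was read. The whole annotated coding sequence lay on 85.2% and 88.8% of Th reads, 72.8% and 51.8% of Dbh reads, 84.7% and 90.3% of Pnmt reads and 91.6% and 88.7% of Gch1 reads. In Ddc it lay on 1 of 3 and 1 of 8 reads.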

How the data were processed

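Each deposited table holds counts: per the file headers and the notes deposited with the files, whole reads per transcript model in 1 library, mapped to mm10 and assigned to GENCODE M21 or to models named by TALON. The tables also give the number of exons and the length of each model. The aligner and program versions are not given in the sources used here. Libraries were not pooled. A gene's count is the sum over its models, without the added control RNAs. The reference exons were checked against the deposited models, and 0 of 22 compared models of the 9 genes differed. Log2 ratios had 0.5 added to each count. The exact binomial, Fisher and interval calculations used scipy 1.17.1 in Python 3.11.15. The exact binomial and Fisher tests, but not the intervals, were tried on simulated data. Those data had counting error only, with no further variation between libraries. The scalings of edgeR 4.0.16 (TMM) and DESeq2 1.42.0 served as alternatives. Retained introns were counted over models of 2 or more exons. A model held the whole coding sequence when it covered start and stop codon and its introns between them equalled the annotated ones. The 9 genes and the gene lists were chosen with earlier results of these data known. Named beside them were the 6 highest genes of the pathway lists, every list gene past the threshold there, the 2 highest of each marker list, and up to 5 shared chains a gene by their smaller count. Some genes that this rule or the lists hold are not reported here. Protein sequences and genome sequence were not used here.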

Additional observations from a re-analysis of the deposited data

How the results depend on the processing

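The count of 1 catecholamine gene (Th) past the threshold between the libraries was the same with TMM scaling, with DESeq2 size factors, with no filter, with at least 30 reads, on annotated transcripts alone and without 1-exon models. The adjusted p of Th ranged over these alternatives up to 0.0138, on annotated transcripts alone (exact binomial test). On annotated transcripts alone the log2 ratio of Cyb561 turned to -0.15, from a count that leaves out its main chain, and neither value passed. The share of the unannotated Cyb561 chain was 58.1% of spliced reads, and 64.6% of reads lay on models outside the annotation with its first junction. Without replicate 1 or replicate 2 the share ranged from 54.7% to 55.6%. With annotated transcripts alone the level of Slc18a1 was 0 CPM, that of Cyb561 57.6, Ddc 3.37, Dbh 155 and Pnmt 476 CPM, moves beyond 1 SD. TMM scaling moved the median log2 ratio by -0.05. Tests between the libraries could not be repeated without a library. No paired analysis was possible because the labels give a single group. Depth limits Ddc, Slc18a1, Slc18a2 and Maoa, which had 3 to 25 reads a library.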
